A study of Mus musculus with 8 samples.

Results

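The antioxidant and glutathione defence genes were followed across the cell groups of the newborn mouse lung. The set held 38 named genes of the 32285 genes in a table of 11806 single cells, and all 38 were found by symbol. They are the regulators Nfe2l2 and Keap1 and the enzymes, carriers and transporters of glutathione, thioredoxin, peroxide, superoxide and NADPH metabolism. The members were chosen by name, and the cells were placed in 10 groups by counts of other, cell-type-specific genes, so no member was used to build a group. The study compared wild-type (WT) C57BL6/J pups in a mouse model of bronchopulmonary dysplasia, a chronic lung disease of preterm infants, and its title asks about type 2 immune polarization. It made 4 libraries from pups kept in air (21% O2) and 4 from pups kept in hyperoxia (65% O2) from birth, with lungs taken at day 5. All 8 libraries came from pups exposed to lipopolysaccharide at day 14 of gestation, the air pups included, so air is not an untreated control. The lungs were frozen and thawed, and immune, epithelial and endothelial cells were then sorted, so other lung cells had no sort of their own. No column of the table named a library, so cells could not be tied to air or hyperoxia, the oxygen groups were not compared, and the table is 1 pooled sample with no p-values.

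NRF2, the transcription factor encoded by Nfe2l2, is held at a low level by KEAP1, which marks it for degradation. Oxidants and electrophiles modify KEAP1, and NRF2 then accumulates and switches on genes for glutathione synthesis, thioredoxin recycling and NADPH supply. Glutathione and thioredoxin donate electrons to the enzymes that reduce peroxides, and NADPH restores both. The newborn lung meets a sudden rise in oxygen at birth, and its alveolar epithelium and phagocytes are long studied as sites of oxidant defence.

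A cell took the first gate it passed, in a fixed order. Alveolar type 2 (AT2) cells, the surfactant makers, numbered 737 with at least 3% Sftpc UMIs. A UMI (unique molecular identifier) is 1 captured RNA molecule. Alveolar type 1 (AT1) cells numbered 118, endothelium 601, alveolar macrophages 962, interstitial macrophages 366, inflammatory macrophages 211, monocytes 3286, neutrophils 328 and T cells 609. The remaining 4588 cells (38.9%) passed no gate and are called other. Markers kept out of the gates were summed as a check, and for the gated groups every list except the inflammatory one was highest in its own group. The 7 inflammatory macrophage markers summed to 3928 counts per 1000000 UMIs (CPM) in their own group and to 6940 CPM in neutrophils. The 10 neutrophil markers, at 8653 CPM in neutrophils, summed to 2326 CPM in the monocyte group, from 93.0 to 6655 CPM by run, a run being defined next. Among types without a main gate, natural killer markers summed to 220 CPM in T cells and 204 CPM in the other cells. B cell markers summed to 132 and 128 CPM in these groups. Pluripotent-like markers summed to 69.4 and 65.4 CPM there, and to 53.9 CPM in AT1 cells. Dendritic markers summed to 124 CPM in endothelium and 44.6 CPM in the other cells, where ciliated and secretory markers were highest. Surfactant and other AT2 markers, at 24168 CPM in AT2 cells, lay between 69.4 and 516 CPM in the other groups. Their part in the low levels of members outside a leading group was not tested.

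Cell barcodes in the table fell into 8 alphabetical runs of 282 to 3355 cells. A run is not a known library or oxygen group, and runs are used here only to show how evenly a level was spread. Of the barcodes, 12 occurred in more than 1 run (31 cells). A level per run is given where the run held at least 20 cells of the group, which left 2 runs for AT1 cells and 3 each for inflammatory macrophages and neutrophils, against 8 for AT2 cells, alveolar macrophages and monocytes. Median depth ran from 2724 UMIs per cell in endothelium to 12587 in inflammatory macrophages. A level is the summed UMIs of a gene in a group as CPM, and brackets hold its exact 95% Poisson interval, which covers counting error only. Since 3′ UMIs count molecules, levels carry no gene-length scaling. A member is called higher in a group when it reached 20 CPM there and was at least 2-fold above all other cells together, and lower by the mirror rule. A gene counts as tested in a group when it reached 20 CPM there or in all other cells.

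Of the 38 members, 34 reached 20 CPM in at least 1 group, and 18 did so in all 10 groups. Nqo1, Gpx2, Gsta3 and Sod3 stayed under 20 CPM in every group. By the 2-fold rule, 19 of those 34 were called in the group where they were highest, beside 57.9% of the 10310 genes that reached the floor, so the share lay near the background. AT2 cells led 8 members, neutrophils and alveolar macrophages 7 each, monocytes 5 and T cells 0. For 16 of the 38 members, the interval of the ratio between the highest and the next group included 1, so the order of those groups could not be told apart by counting.

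**Figure D1:**
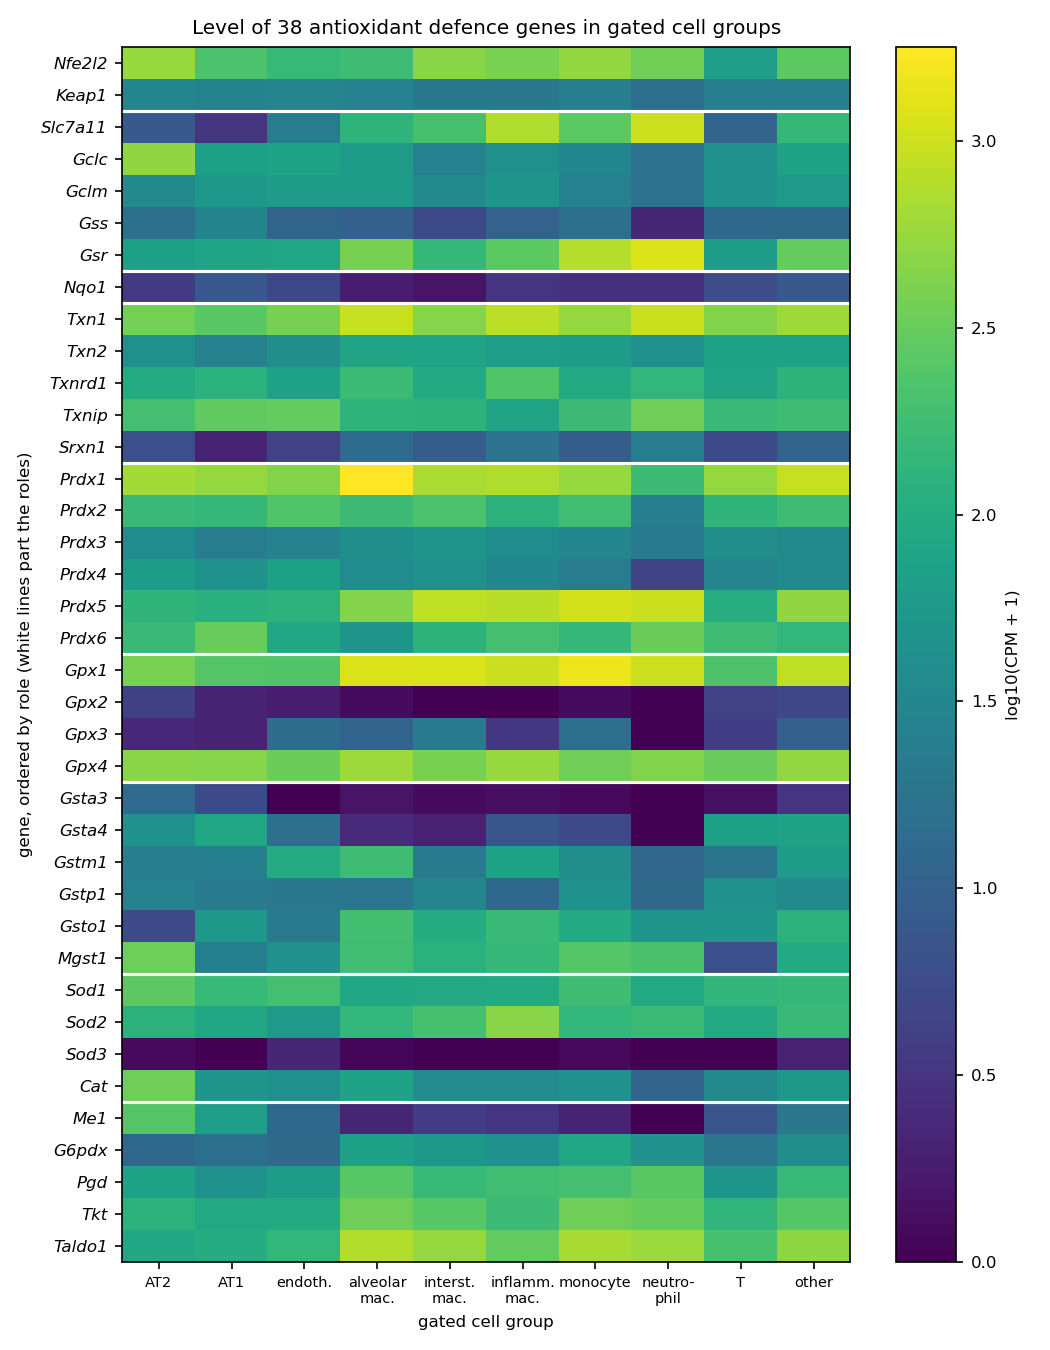
Level of each of the 38 members (rows, grouped by role between white lines) in the 10 gated cell groups (columns), as log10(CPM + 1) over all cells of a group. Gclc, Cat and Me1 are brightest in AT2 cells, Slc7a11 and Gsr in neutrophils, and Prdx1 in alveolar macrophages, while Nqo1, Gpx2, Gsta3 and Sod3 are dark throughout.

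The groups differed in which side of the set stood out. AT2 cells had 4 of 31 tested members called higher (Gclc, Mgst1, Cat and Me1), against 18.3% of all genes, and 10 lower, against 25.8%. AT1 cells had 4 of 32 higher (background 26.7%) and 12 lower (16.7%). Endothelium had 1 of 31 higher (22.6%) and 14 lower (14.4%), and T cells 1 of 31 higher (11%) and 13 lower (21.4%). In both of these groups the lower members included Slc7a11, Gsr, Prdx5, Gpx1, Mgst1, Gsto1, G6pdx, Pgd and Taldo1, and Nfe2l2 as well. Single runs decided some of the small counts: without run 1 the higher members numbered 2 in AT1 cells and 0 in interstitial macrophages, without run 4 or run 5 they numbered 0 in endothelium, and without run 3 or run 5 they numbered 0 in T cells. Without cells holding at least 2 UMIs of Dppa5a, a gene of early embryonic and germ-line cells, AT2 cells had 7 higher. Such cells made up 10.2% of AT1 cells, 9.09% of the other cells and 3.94% of T cells. Shares of all genes past 2-fold were not recomputed without single runs or without these cells.

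Neutrophils had 5 of 32 higher (Slc7a11, Gsr, Txnip, Srxn1 and Prdx6), against 9.99% of all genes, and 11 lower, against 27.1%. Monocytes had 3 of 31 higher (6.36%; 5 without run 6) and 4 lower (14.3%), inflammatory macrophages 3 of 31 higher (5.26%) and 4 lower (12.1%), and alveolar macrophages 2 of 31 higher (6.62%) and 4 lower (13.9%). Interstitial macrophages had 1 of 32 higher (3.28%) and 5 lower (12.2%), and the other cells 1 of 31 higher (2.7%) and 0 lower (3.59%). The median log2 ratio of the tested members to all other cells was -0.82 in endothelium, where that of all genes was 0.23, and -0.83 in T cells, where that of all genes was 0.00. In AT1 cells it was -0.63, beside 0.32 for all genes. In alveolar macrophages it was 0.18, beside -0.03 for all genes. Summed over the 38 members, the level was 8880 CPM in neutrophils, 8776 CPM in alveolar macrophages and 8511 CPM in monocytes. Inflammatory macrophages held 7925 CPM, interstitial macrophages 6842 CPM, the other cells 6794 CPM and AT2 cells 5691 CPM. AT1 cells held 3881 CPM, endothelium 3592 CPM and T cells 3448 CPM. A CPM is a share of a group's UMIs. The 14 genes above 1% of a group's UMIs took 21.7% of UMIs in AT2 cells and 21.0% in neutrophils. In the remaining groups they took 5.80% to 9.85%.

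**Figure D2:**
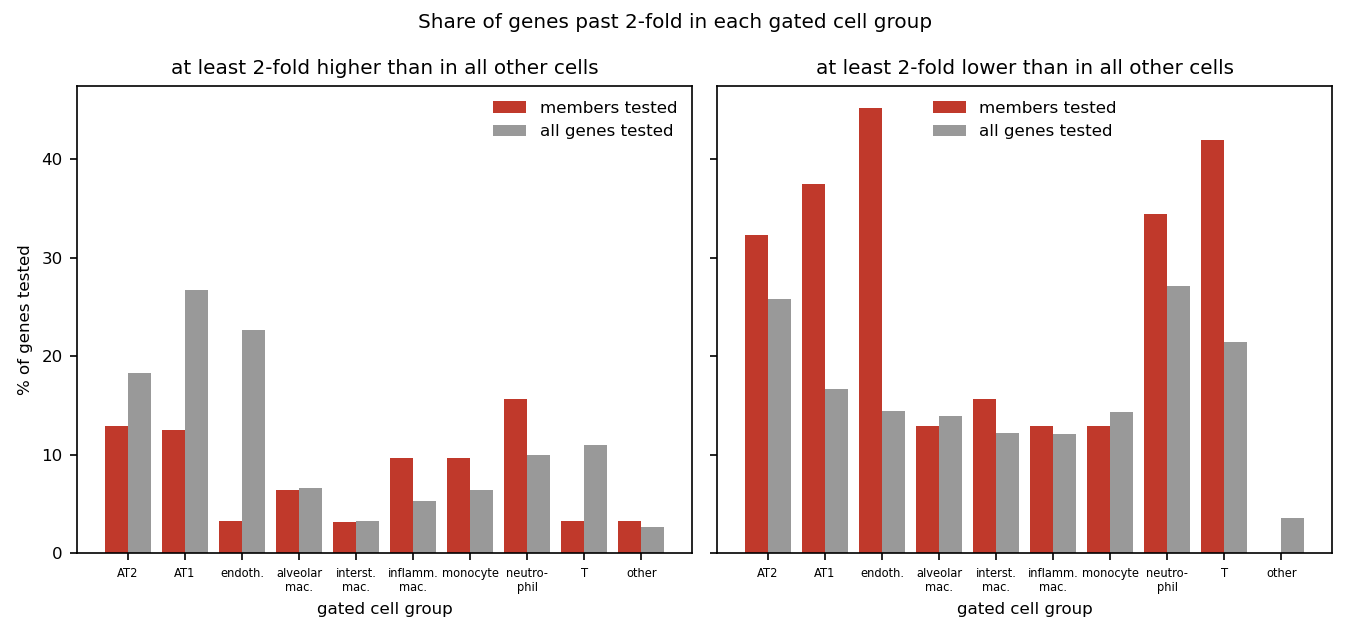
Percent of tested genes at least 2-fold higher (left) or lower (right) than in all other cells, for the members (red) and for all genes (grey) in each gated cell group. On the lower side, the members lie above all genes in endothelium (45.2% against 14.4%), T cells (41.9% against 21.4%) and AT1 cells (37.5% against 16.7%).

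The regulators came first. Nfe2l2 (chr2:75675513-75704641, GRCm38, minus strand) stood at 555 CPM [535 to 576] in AT2 cells, from 465 to 632 CPM over the 8 runs with a median of 578 CPM. Monocytes followed at 527 CPM [517 to 537], with runs from 437 to 729 CPM, and were the lower of the pair in only 5 of 8 runs. Interstitial macrophages held 469 CPM, inflammatory macrophages 390 CPM and neutrophils 363 CPM. Alveolar macrophages, at 175 CPM, and endothelium, at 151 CPM, were more than 2-fold under all other cells. T cells were lowest at 65.9 CPM, and no T cell run (51.6 to 87.9 CPM) overlapped any AT2 or monocyte run. Keap1, the adaptor that targets NRF2 for degradation, was flat by comparison, from 14.0 CPM in neutrophils to 29.8 CPM in AT2 cells. Its level missed the 2-fold mark in all 10 groups, and the ratio of AT2 cells to endothelium was 1.03 with an interval of 0.773 to 1.39. RNA levels do not measure NRF2 protein, whose amount is set largely after translation.

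NRF2 binds, with a small MAF partner, the antioxidant response element, whose core is written TGACNNNGC. This core was searched on both strands from 250 bases before to 50 after each RefSeq start. Of the 38 members, 33 had an entry in the promoter table, and 11 of these genes (33.3%) held the core in at least 1 promoter, against 14.0% of 27025 genes. They were Nfe2l2 itself, Gclm, Txnrd1, Srxn1, Prdx1, Gsta3, Mgst1, Sod1, Me1, G6pdx and Pgd. The exact letters TGACTCAGC occurred in 0.454% of all 32851 promoters and in 2 of 42 member promoters, those of Me1 and Prdx1. Gclc, Gsr, Prdx6, Gsta4 and Sod3 had no entry. The windows below are shown because their genes were highest in 3 different groups, Me1 in AT2 cells, Prdx1 in alveolar macrophages and G6pdx in monocytes. Each runs 5′ to 3′ on the gene's strand, from RefSeq on GRCm38.p6, with the core in capitals, which for Prdx1 and G6pdx reads on the opposite strand.
Me1, chr9:86695895-86695994, minus strand: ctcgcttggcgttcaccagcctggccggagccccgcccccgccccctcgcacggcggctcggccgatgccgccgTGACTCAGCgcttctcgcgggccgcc
Prdx1, chr4:116685419-116685518, plus strand: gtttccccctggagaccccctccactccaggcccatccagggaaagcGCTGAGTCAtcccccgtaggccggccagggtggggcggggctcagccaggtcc
G6pdx, chrX:74428881-74428980, minus strand: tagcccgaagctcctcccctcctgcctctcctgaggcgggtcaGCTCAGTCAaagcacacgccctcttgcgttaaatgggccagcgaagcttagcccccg
A match is a string of letters, and binding was not measured here.

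Glutathione synthesis and its recycling were led by different cells. Gclc, the catalytic subunit of glutamate-cysteine ligase and the rate-limiting step of glutathione synthesis, was highest in AT2 cells among the 10 groups. It stood at 509 CPM [490 to 529] in AT2 cells, with runs from 407 to 638 CPM and a median of 488 CPM. Endothelium came next at 75.4 CPM, and the ratio of AT2 cells to all other cells was 9.77 (9.29 to 10.3). The lowest AT2 run lay above every run of every other group, the nearest being an endothelial run at 192 CPM. Within the other cells, small gates for airway secretory (8 cells) and ciliated cells (19 cells) held 531 and 387 CPM. A Gclc UMI was present in 73.1% of AT2 cells, and in 51.3% after each cell was thinned to 2000 UMIs, against 12.5% and 5.91% of monocytes. Gclm, the modifier subunit that raises the efficiency of Gclc, did not share this pattern. It was at 34.1 CPM in AT2 cells and reached 61.6 CPM in alveolar macrophages and 60.1 CPM in endothelium, and no group passed 2-fold above the rest. Gss, which completes glutathione, was low throughout, with 28.6 CPM in AT1 cells (2.48-fold) on 26 UMIs as its top value.

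Slc7a11, the cystine importer that supplies cysteine for glutathione, ran the other way. It reached 1020 CPM [972 to 1070] in neutrophils, with 892, 332 and 1422 CPM in runs 1, 6 and 7. Inflammatory macrophages held 734 CPM [703 to 766], with 613, 1103 and 730 CPM in runs 1, 6 and 8. The ranges of these 2 groups overlapped, neutrophils being higher in run 1 and lower in run 6, and both lay above monocytes at 267 CPM in each run they shared. Neutrophils were 5.69-fold (5.41 to 5.99) above all other cells, a log2 ratio of 2.51 that was 3.17 without run 1. AT2 cells, where Gclc was highest, held 7.05 CPM of Slc7a11 [4.94 to 9.76], AT1 cells 2.20 CPM and T cells 10.5 CPM. A Slc7a11 UMI was found in 57.3% of neutrophils and 72.0% of inflammatory macrophages, and after thinning in 52.8% and 50.7%. The share in AT2 cells was 3.66%, and 2.66% after thinning.

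Gsr, glutathione reductase, which turns oxidised glutathione back with NADPH, was also a neutrophil and monocyte gene. Neutrophils held 1216 CPM [1163 to 1271], with 1140, 1050 and 1901 CPM in runs 1, 6 and 7, and were 3.12-fold (2.98 to 3.27) above all other cells. Monocytes held 768 CPM, with runs from 628 to 931 CPM, and no monocyte run reached a neutrophil run. AT2 cells, AT1 cells, endothelium and T cells lay between 60.6 and 80.7 CPM. Gsr was not high in all phagocytes. Interstitial macrophages, at 144 CPM, were called lower than all other cells. Their runs, from 20.95 to 205 CPM, overlapped the T cell runs of 45.3 to 86.3 CPM.

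**Figure D3:**
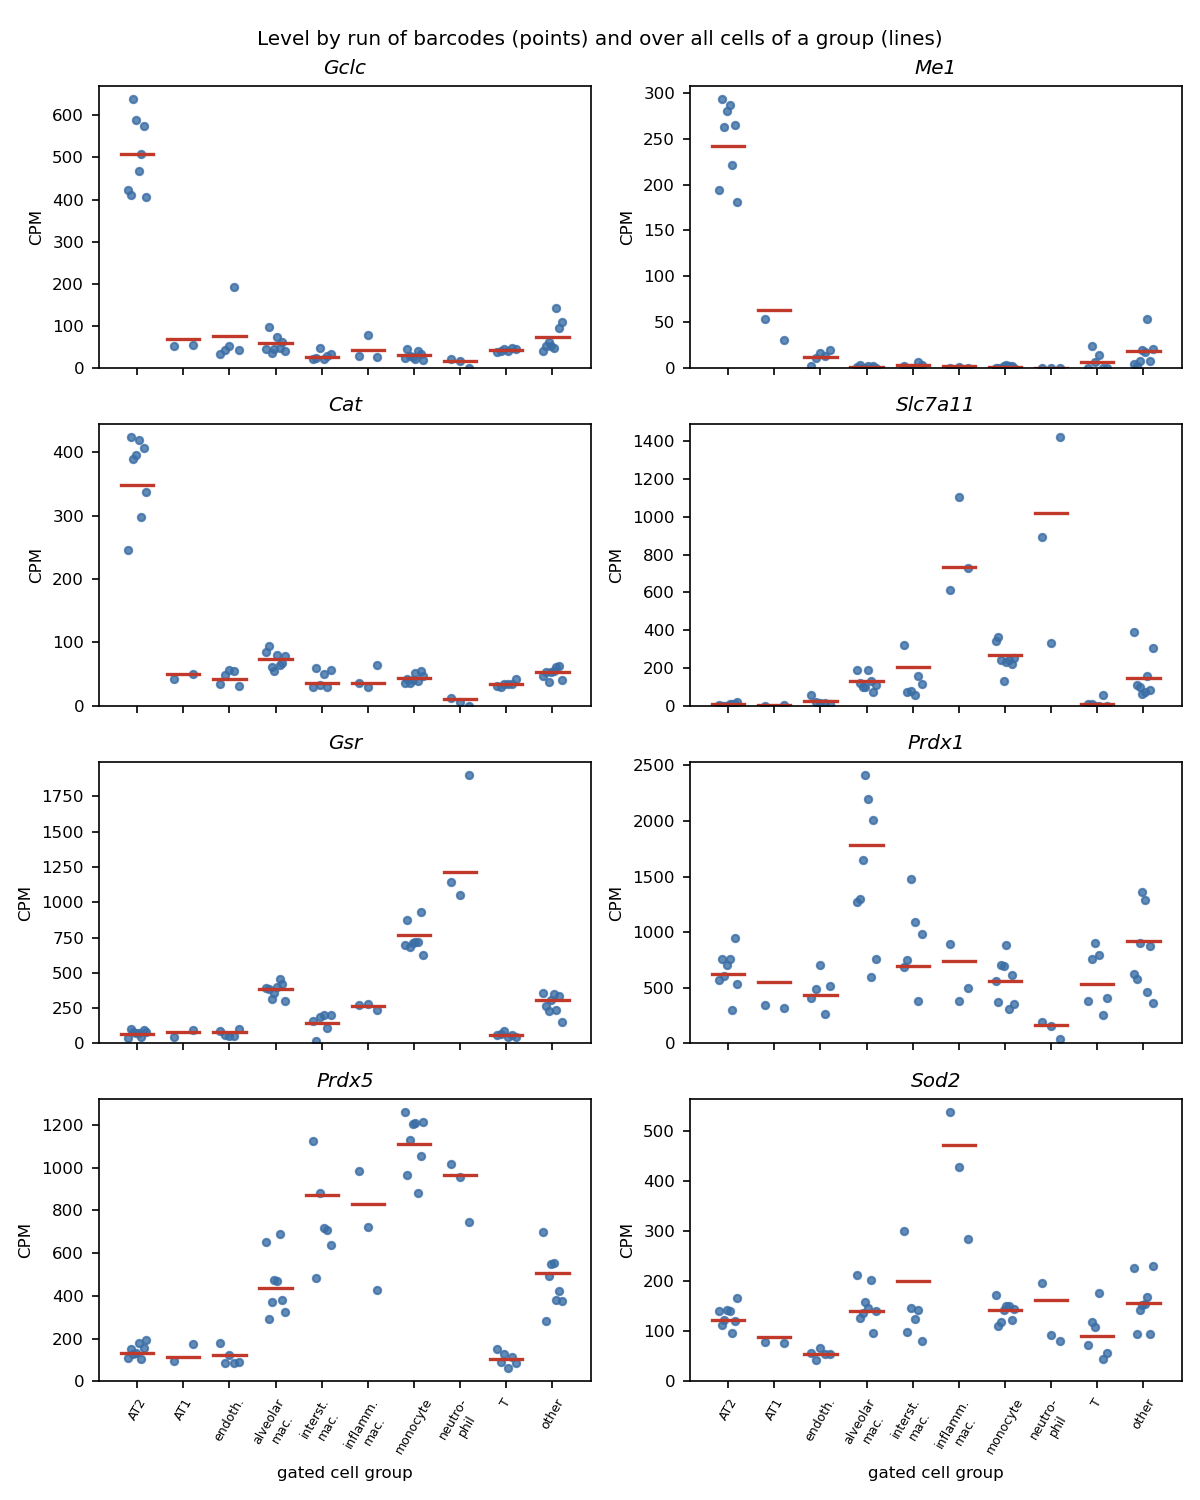
Level (CPM, linear axes) of 8 members in the 10 gated cell groups. Points are runs of barcodes with at least 20 cells of the group and lines are the level over all its cells. Gclc, Me1 and Cat in AT2 cells lie above every point of the other groups, Slc7a11 varies from 332 to 1422 CPM among neutrophil runs, and Prdx1 in alveolar macrophages from 594 to 2414 CPM.

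Nqo1, the quinone reductase often used as a readout of NRF2, was close to absent. Its top level was 7.03 CPM among the other cells, and it was 2.55 CPM in AT2 cells and 0.493 CPM in interstitial macrophages. Of the 182 Nqo1 UMIs among the other cells, 158 were in the cells with at least 2 Dppa5a UMIs, and without them the level was 1.13 CPM.

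The thioredoxin system was spread more evenly. Txn1, cytosolic thioredoxin, reached 984 CPM in neutrophils and 939 CPM in alveolar macrophages, a ratio of 1.05 (0.993 to 1.11), and was lowest in AT1 cells at 260 CPM. Txnrd1, the reductase that recharges it, was highest in inflammatory macrophages at 231 CPM, with 205 to 316 CPM in 3 runs. Alveolar macrophages followed at 166 CPM, and the ratio to all other cells was 2.01 (1.86 to 2.18), at the edge of the 2-fold rule. The log2 ratio was under 1 without run 4 (0.99), run 6 (0.86) or run 7 (0.98). Txn2, mitochondrial thioredoxin, ranged only from 25.3 to 79.3 CPM. Txnip, which binds thioredoxin and blocks its activity, stood at 356 CPM [327 to 386] in neutrophils, 300.3 CPM in endothelium and 286 CPM in AT1 cells. Neutrophil runs 1, 6 and 7 gave 287, 527 and 372 CPM, inside the endothelial range of 209 to 555 CPM, though neutrophils were the higher group in each of the 3 runs with both. Their ratio to all other cells was 2.14 (1.97 to 2.33), and its log2 was 0.93 without run 6. With the neutrophil gate first it was 0.59, and endothelium became the highest group. Inflammatory macrophages, where Txnrd1 was highest, held the least Txnip at 78.4 CPM. Srxn1, which repairs over-oxidised peroxiredoxins, reached 22.0 CPM in neutrophils on 36 UMIs.

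Peroxiredoxins, most of which reduce hydrogen peroxide with thioredoxin, divided the myeloid groups. Prdx1 (chr4:116685544-116700822, GRCm38, plus strand), cytosolic, stood at 1783 CPM [1755 to 1812] in alveolar macrophages, 2.54-fold (2.50 to 2.59) above all other cells. The 8 alveolar macrophage runs spread from 594 to 2414 CPM with a median of 1474 CPM, and each was above the rest of its own run. Neutrophils were lowest at 167 CPM (39.9 to 193 CPM in 3 runs), 10.7-fold under alveolar macrophages. A Prdx1 UMI was found in 94.3% of thinned alveolar macrophages and 21.9% of thinned neutrophils.

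Prdx5, found in mitochondria, peroxisomes and cytosol, was highest in monocytes at 1111 CPM [1096 to 1125], with runs from 880 to 1259 CPM. Neutrophils held 967 CPM and interstitial macrophages 871 CPM, while alveolar macrophages held 438 CPM. The monocyte ratio to all other cells was 2.40 (2.36 to 2.44). AT2 cells, AT1 cells, endothelium and T cells lay between 106 and 135 CPM. Prdx6, which also has phospholipase activity toward surfactant lipids, was called in neutrophils at 335 CPM and in AT1 cells at 310 CPM, and these 2 levels could not be told apart (ratio 1.08, interval 0.935 to 1.25). AT2 cells held 152 CPM of Prdx6 and alveolar macrophages the least, 50.4 CPM. Prdx4, the peroxiredoxin of the secretory pathway, stood at 69.2 CPM in endothelium (2.13-fold, 1.81 to 2.49) and 61.1 CPM in AT2 cells, with endothelial runs from 32.2 to 116 CPM that overlapped AT2 runs of 41.7 to 80.2 CPM. Its endothelial log2 ratio was 0.97 without run 5, and just under 1.00 without run 4. With totals that left out genes above 1% of a group's UMIs, AT2 cells became the highest group for Prdx4. Neutrophils held 3.66 CPM of Prdx4 on 6 UMIs. Prdx2 ranged from 23.8 CPM in neutrophils to 232 CPM in endothelium, and Prdx3, the mitochondrial member, from 20.7 to 46.6 CPM.

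As a share of all peroxiredoxin UMIs, Prdx1 took 70.8% in alveolar macrophages and Prdx5 17.4%. In monocytes Prdx1 took 27.5% and Prdx5 54.1%, and in neutrophils Prdx5 took 63.7%. The alveolar macrophage share of Prdx1 ran from 39.0% to 75.4% by run and the monocyte share from 18.7% to 35.7%, so the ranges did not overlap. Prdx6 made up 26.0% of the family in AT1 cells and 22.1% in neutrophils, against 2.00% in alveolar macrophages. The 2 AT1 runs with a value gave 26.6% and 41.1%. Of the 500 Prdx1 UMIs in AT1 cells, 310 came from cells with at least 2 Dppa5a UMIs.

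Glutathione peroxidases were dominated by Gpx1 and Gpx4. Gpx1, the cytosolic enzyme, reached 1476 CPM in monocytes, 1.81-fold above all other cells, with runs from 978 to 1701 CPM. Alveolar macrophages at 1199 CPM, interstitial macrophages at 1167 CPM and neutrophils at 1005 CPM followed. AT2 cells held 397 CPM, and AT1 cells, endothelium and T cells 219 to 241 CPM. Gpx4, which reduces lipid hydroperoxides in membranes and restrains ferroptosis, varied little between groups, from 321 CPM in T cells to 604 CPM in alveolar macrophages. Runs within these 2 groups spread from 161 to 539 CPM and from 295 to 731 CPM. Alveolar macrophages were above inflammatory macrophages, next at 568 CPM, in 0 of the 3 runs with both. Gpx1 thus made up 80.4% of the family's UMIs in monocytes (77.9% to 83.2% by run) and 45.2% in AT2 cells (37.6% to 56.0%), where Gpx4 made up 54.2%. Gpx3, the secreted enzyme, reached 21.7 CPM in interstitial macrophages (2.40-fold, 88 UMIs) and was at 0 UMIs in neutrophils. Gpx2, an epithelial enzyme, peaked at 4.06 CPM among the 10 groups.

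**Figure D4:**
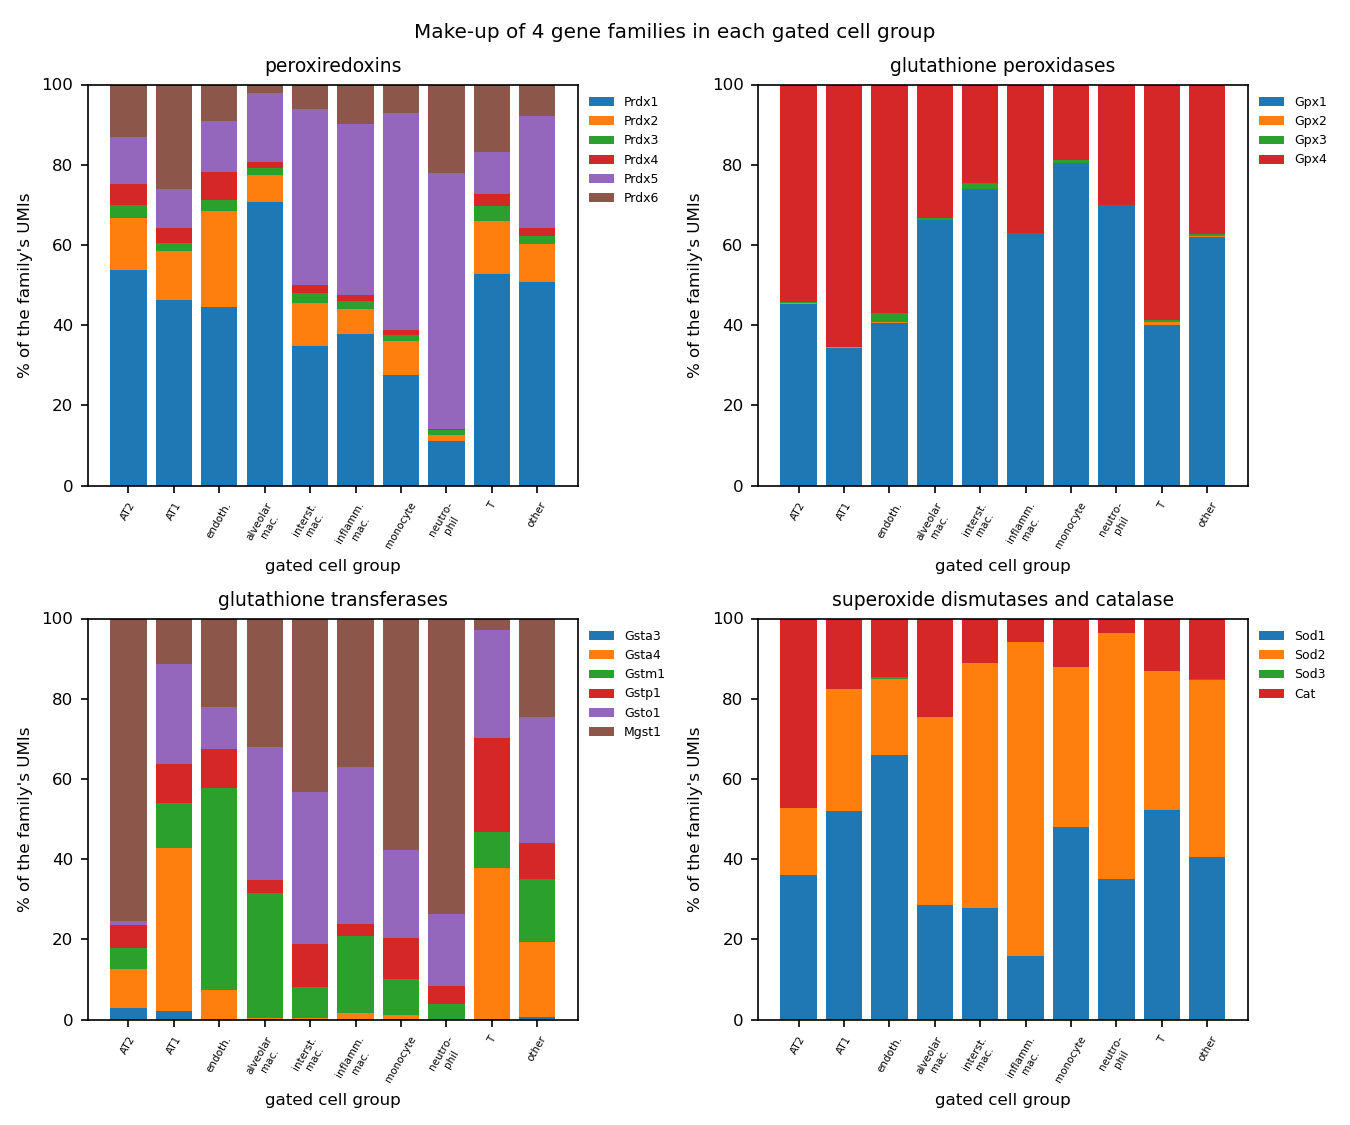
Share of each family's UMIs (percent, stacked to 100) taken by each member in the 10 gated cell groups, for peroxiredoxins, glutathione peroxidases, glutathione transferases, and superoxide dismutases with catalase. Prdx1 fills most of the alveolar macrophage bar and Prdx5 most of the neutrophil bar, Mgst1 most of the AT2 bar, and Sod2 most of the inflammatory macrophage bar.

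Glutathione transferases, which couple glutathione to electrophiles, were led by several groups. Mgst1, a membrane-bound enzyme that also reduces lipid peroxides, was highest in AT2 cells at 342 CPM [326 to 359], with runs from 294 to 399.6 CPM, 2.33-fold (2.22 to 2.46) above all other cells. Monocytes held 249.6 CPM and were lower than AT2 cells in 8 of 8 runs. T cells held 5.15 CPM and AT1 cells 24.2 CPM, so the pair of alveolar epithelial groups stood far apart. Mgst1 took 75.5% of transferase UMIs in AT2 cells and 73.6% in neutrophils. In AT1 cells it took 11.2% over all cells, where 80 of the 196 transferase UMIs were Gsta4, and 23.9% and 33.3% in the 2 runs with a value.

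Gstm1 was highest in alveolar macrophages at 172 CPM [163 to 181], 3.69-fold (3.47 to 3.93) above all other cells, with runs from 43.6 to 233 CPM and a median of 158 CPM. Endothelium followed at 98.5 CPM, where Gstm1 made up 50.4% of transferase UMIs. Gsto1, an omega-class enzyme with thiol transferase activity, was at 183 CPM in alveolar macrophages and 155 CPM in inflammatory macrophages. AT2 cells held 4.50 CPM, 40.5-fold under alveolar macrophages. Gstp1 ranged from 11.6 to 44.1 CPM with no group past 2-fold above the rest, and Gsta3 peaked at 12.5 CPM in AT2 cells. Gstm1 and its near relatives share sequence, and how reads that match several genes were treated is not given in the sources used here.

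Gsta4, which detoxifies the lipid peroxidation product 4-hydroxynonenal, had an AT1 level that rested on a few cells. It stood at 88.0 CPM in AT1 cells (2.56-fold), 73.3 CPM in the other cells, 69.8 CPM in T cells and 44.7 CPM in AT2 cells. AT1 runs 1 and 6, which held enough cells for a value of their own, gave 0 and 46.6 CPM. Of the 80 Gsta4 UMIs in AT1 cells, 77 came from 12 cells with at least 2 Dppa5a UMIs, and without these the AT1 level was 4.60 CPM. The T cell level without them was 2.17 CPM and that of the other cells 4.13 CPM, while AT2 cells kept 43.3 CPM. Gsta4 was at 0 UMIs in neutrophils, where a count of 0 allows up to 1.83 CPM.

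The superoxide dismutases and catalase had a leader each. Sod2, the mitochondrial manganese enzyme and a known target of inflammatory signalling, was highest in inflammatory macrophages at 472 CPM [448 to 498]. That was 3.31-fold the level of the remaining cells. Their 3 runs gave 285 to 539 CPM, and the highest run of interstitial macrophages, next at 200.3 CPM, lay above the lowest of these, so the ranges overlapped. Cat, catalase, which breaks down hydrogen peroxide in peroxisomes, was an AT2 gene at 349 CPM [333 to 365], with runs from 246 to 424 CPM. It was 7.16-fold (6.76 to 7.58) above all other cells, and the lowest AT2 run lay above the highest run of every other group, 95.0 CPM in alveolar macrophages. Neutrophils held 9.76 CPM of Cat on 16 UMIs. Sod1, the cytosolic copper-zinc enzyme, was highest in AT2 cells at 267 CPM (1.91-fold) and lowest in alveolar macrophages at 85.7 CPM. Sod3, the secreted enzyme, peaked at 1.24 CPM in endothelium. Of the UMIs of these 4 genes, catalase took 47.2% in AT2 cells, Sod2 78.2% in inflammatory macrophages and Sod1 65.9% in endothelium.

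NADPH supply was divided, with Me1 highest in AT2 cells and the pentose phosphate enzymes in phagocytes. Me1, cytosolic malic enzyme, was the most AT2-bound member, at 242 CPM [229 to 256] with runs from 181 to 293 CPM. It was 27.4-fold (24.9 to 30.2) above all other cells and 3.86-fold (2.96 to 5.13) above AT1 cells, next at 62.7 CPM. Monocytes held 1.07 CPM and alveolar macrophages 1.16 CPM. Neutrophils held 0 UMIs, which makes the AT2 level at least 132-fold higher at 3 counts over the neutrophil group. A Me1 UMI was found in 65.9% of AT2 cells (39.0% after thinning), 0.487% of monocytes (0.238%) and 0 of 328 neutrophils, which allows a share of cells with a UMI of up to 1.12% (exact binomial) and sets no limit on cells that express the gene.

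The pentose phosphate enzymes were each highest in a phagocyte group, but not every phagocyte group stood high. Summed with Me1, they stood at 1422 CPM in alveolar macrophages, 958 CPM in the other cells and 689 CPM in inflammatory macrophages. G6pdx, which opens the pathway, was at 82.2 CPM [78.3 to 86.2] in monocytes, with runs from 57.1 to 113 CPM and a ratio to all other cells of 2.10 (1.97 to 2.24). Its log2 ratio was under 1 when cells were thinned before gating (0.82), without Dppa5a cells (0.98) and with the neutrophil gate first (0.87), where neutrophils became the highest group. AT2 cells held 11.2 CPM, endothelium 12.4 CPM and AT1 cells 14.3 CPM. Pgd, the next NADPH-forming step, stood at 265 CPM in neutrophils and 254 CPM in alveolar macrophages, and Tkt (transketolase) at 352 CPM in monocytes and 348 CPM in alveolar macrophages. Each of these 2 leads had an interval that included 1. Taldo1 (transaldolase) reached 751 CPM in alveolar macrophages and 659.9 CPM in monocytes, against 85.0 CPM in AT2 cells. Over the 9 gated groups, Tkt and Taldo1 had the most alike order of levels among these enzymes (Spearman rho 0.93). With Me1 included, Me1 and Taldo1 were the most opposed (-0.92). The low ranks of Me1 rest on few counts, with 0 UMIs in neutrophils and 6 in inflammatory macrophages. All 30 Me1 UMIs in T cells came from Dppa5a cells. The 9 groups share their libraries, and these values are given as a description.

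Monocytes and neutrophils were examined further, since their gates overlapped. Within the monocyte group, 927 cells passed by Ly6c2 and F13a1 alone, genes of classical monocytes, and 2023 by Ace and Adgre4 alone, genes of patrolling monocytes. Nfe2l2 was at 312 CPM in the former and 678 CPM in the latter, and lower in the former in 8 of 8 runs. Gsr (609.8 against 877 CPM) and Gpx1 (1224 against 1628 CPM) were also lower in 8 of 8 runs. Gss, Txnrd1, Gsto1 and Sod2 were higher in the former in 0 of 8 runs. Mgst1 (335 against 149 CPM), Prdx4 (32.5 against 13.4 CPM) and Gpx3 (21.9 against 7.07 CPM) were higher in 8 of 8, as was Txn2. Slc7a11 was level, at 266 and 268 CPM. Neutrophil markers summed to 6263 CPM in the classical part and 127 CPM in the patrolling part. Without cells that also passed the neutrophil gate they summed to 2323 and 115 CPM, and Slc7a11 was at 192 and 267 CPM. Nfe2l2, Gsr, Gpx1, Mgst1, Prdx4 and Gpx3 then kept their direction in 8 of 8 runs. The part of the remaining neutrophil markers in these differences was not tested.

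The neutrophil gate was passed by a further 104 cells that an earlier gate had taken. Their levels of Camp (4851 against 811 CPM) and Ngp (6347 against 1313 CPM), granule genes of immature neutrophils, were above those of the neutrophil group, and Cxcr2, a receptor of mature neutrophils, was below (187 against 516 CPM). Among the members they held more Mgst1 (509 against 204 CPM), Prdx5 (1519 against 967 CPM), G6pdx (154 against 42.7 CPM), Prdx2 (93.1 against 23.8 CPM) and Tkt (518 against 306 CPM). They held less Slc7a11 (619 against 1020 CPM) and Txnip (130 against 356 CPM). Their median depth was 12738 UMIs, against 4648 in the neutrophil group, and a single run held at least 20 of them.

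Among the 4588 other cells, small gates picked out types the main gates lacked, and members that were low elsewhere appeared there. Most of the other cells, 3652, passed no small gate either, and held Gsr at 398 CPM, Prdx5 at 684 CPM and Slc7a11 at 199 CPM. In the other cells as a whole, alveolar macrophage markers summed to 1192 CPM, interstitial macrophage markers to 1364 CPM and monocyte markers to 1221 CPM. These lists summed to 4298, 13083 and 5430 CPM in their own groups. In 8 cells with at least 1% Scgb1a1 UMIs, a gene of airway secretory cells, Mgst1 was at 1741 CPM [1441 to 2085], Prdx6 at 767 CPM, Gsta3 at 221 CPM, Gpx2 at 207 CPM and Nqo1 at 44.3 CPM on 3 UMIs. Gclc was at 531 CPM there, as in AT2 cells. In 19 cells gated on Foxj1 and Tmem212, genes of ciliated cells, Txnip was at 929.8 CPM [784 to 1095], Gstm1 at 433 CPM and Sod1 at 407 CPM. Sod3 had 23 UMIs in 175 cells with dendritic cell genes (17.3 CPM). In the 417 Dppa5a-gated cells, Gsta4 was at 396 CPM [378 to 415], Prdx1 at 1249 CPM, Gpx4 at 955 CPM and Gclm at 133 CPM, the highest Gclm level of any group or gate. Their identity was not examined.

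Of 53 further genes of the pathway, 39 reached 20 CPM in a group and 26 were called in their leading group, beside 57.9% of all genes at that floor. Of the 26, AT2 cells led 9 and alveolar macrophages 6. Among all tested genes, 18.3% were called higher in AT2 cells and 6.62% in alveolar macrophages. Gstt1, a theta-class transferase, was at 50.3 CPM in AT2 cells, 71.0-fold above all other cells. Osgin1, an NRF2-responsive growth inhibitor, was at 54.9 CPM in neutrophils (5.94-fold), beside Slc7a11. Slc1a5, a neutral amino acid carrier, was at 219 CPM in AT1 cells (5.82-fold), and Mgst2 at 71.5 CPM in T cells (4.76-fold), where Mgst1 was lowest. Neither level was recomputed without cells holding at least 2 Dppa5a UMIs, which made up 10.2% of AT1 cells and 3.94% of T cells. Hmox1, heme oxygenase and a classic NRF2 target, was at 209.5 CPM in alveolar macrophages (2.74-fold). Slc3a2, the partner chain of Slc7a11, was at 191 CPM in inflammatory macrophages (1.55-fold).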

How the data were processed

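The deposited values were raw UMI counts per gene and cell from 8 libraries (3′ v3.1 droplet chemistry, per the labels' protocols). The submitters' processing notes name Cell Ranger 1.3.1 and the mm10 build. How multi-mapping reads were counted is not stated there. The table held 77020720 UMIs, a median of 4425 per cell and at least 800 genes in every cell. No further cell filter was applied. Free RNA was not subtracted. A planned edgeR comparison of oxygen groups was not run, because 0 of 8 library titles occurred in a column name.

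Counts were summed per gated group and given as CPM (numpy 2.4.6, scipy 1.17.1), with exact Poisson, binomial (Clopper-Pearson) or conditional binomial intervals at 95%. These cover counting error only. The gates were at least 3% Sftpc (AT2), 3 Rtkn2 UMIs (AT1), 2 of Cdh5 and Cldn5 (endothelium), 2 of Ear1 and Marco (alveolar macrophage), 5 of C1qa and C1qb (interstitial), 5 of Inhba and Saa3 (inflammatory), 3 of Ly6c2 and F13a1 or 2 of Ace and Adgre4 (monocyte), 2% S100a8 and S100a9 with 1 Csf3r (neutrophil), and 2 of Cd3e and Trac (T). Of the cells, 661 passed several gates and took the first. Gate genes were left out of the background counts. Members were given in full where called and at 50 CPM or more, with Nfe2l2 and Keap1, and further pathway genes where called, at 50 CPM and 4-fold. Hmox1 and Slc3a2 were named after their values were seen. Members, gates and lists were chosen with earlier results of these data known. Doublets were left in, and an alternative removed the 193 cells with the highest scores per run (Scrublet in scanpy 1.11.5), since the automatic threshold marked only 56. Scripts were tested on simulated data. Sequences came from a RefSeq promoter table and gene coordinates from a GRCm38 annotation.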

Additional observations from a re-analysis of the deposited data

How the results depend on the processing

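No paired analysis was possible because cells could not be tied to libraries. Over 18 alternative settings, 16 planned and 2 chosen after seeing the data (without cells holding 2 or more Dppa5a UMIs, and with the neutrophil gate first), 237 of 324 log2 ratios of named members stayed inside their counting interval, 85 moved in the same direction and 2 reversed. Both reversals were Gsta4 in AT1 cells, 1.35 as reported, -1.74 with gate thresholds doubled and -0.05 without Dppa5a cells. It was 0.23 when cells were thinned before gating and 0.60 without run 7. Slc7a11 in neutrophils, 2.51 as reported, was 3.17 without run 1, and Me1 in AT2 cells, 4.78, was 5.51 without Dppa5a cells. Txnrd1 was under 2-fold without run 4 (0.99), run 6 (0.86) or run 7 (0.98), Txnip without run 6 (0.93) and with the neutrophil gate first (0.59), Prdx4 without run 5 (0.97) or run 4 (just under 1.00), and G6pdx when thinned (0.82), without Dppa5a cells (0.98) and with the neutrophil gate first (0.87). The leader became monocytes for Nfe2l2 in 4 of 18 settings, AT1 cells for Prdx6 in 4, inflammatory macrophages for Slc7a11 when thinned, and neutrophils for Prdx5, Mgst1 and G6pdx with the neutrophil gate first. For Prdx4 the leader became AT2 cells when totals left out genes above 1% of a group's UMIs.

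Counts of members called higher stayed within 1.5 times of the reported value in 177 of 198 cases. The shares of all genes past the same fold were not recomputed under these settings, so the counts below have no background beside them. Thinning before gating gave 7 in AT2 cells (4 as reported), 5 in inflammatory macrophages (3) and 0 in T cells (1). Leaving out Dppa5a cells gave 7 in AT2 cells, 0 in T cells and 0 in the other cells (1). Doubled thresholds, like keeping only cells that passed 1 gate or none, gave 0 in interstitial macrophages (1) and 0 in T cells, and the mean of per-cell CPM gave 0 in T cells. A floor of 5 CPM gave 2 in the other cells, and no floor gave 4 there and 2 in endothelium (1). Leaving out each run in turn gave 17 to 19 members called in all (19), 4 to 5 in AT2 cells, 2 to 5 in AT1 cells, 0 to 1 in endothelium, 2 to 3 in alveolar macrophages, 0 to 1 in interstitial macrophages, 2 to 4 in inflammatory macrophages, 3 to 5 in monocytes, 4 to 5 in neutrophils, 0 to 1 in T cells and 1 in the other cells. The cause of these shifts was not tested. AT1 cells, inflammatory macrophages and neutrophils rest on few cells and runs, which limits their values.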

Other observations

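Run 6 stood apart for several members that the gates did not use. Over the 6 groups with at least 6 runs of 20 or more cells, it was the lowest run for Gstp1 in 6 of 6, for Prdx1, Gpx4, Gstm1 and Txn2 in 5 of 6, and for Gpx1 in 4 of 6. Prdx1 was at 594 CPM in its alveolar macrophages, against up to 2414 CPM in run 4, at 306 CPM in its monocytes, against up to 883 CPM in run 5, and at 254 CPM in its T cells, against up to 899 CPM in run 4. Gstm1 in alveolar macrophages ran from 43.6 CPM in run 6 to 233 CPM in run 5. The share of UMIs from ribosomal protein genes was also lowest in run 6 in each of those 6 groups, 11.8% in monocytes against 20.1% in run 4 and 8.59% in alveolar macrophages against 18.2% in run 4. The part of the ribosomal share in these values was not tested.

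Slc7a11 varied by run as well. Monocytes held 128 CPM in run 4 and 361 CPM in run 2, and the other cells 62.4 CPM in run 4 and 393 CPM in run 1. Gsta4 in the other cells ran from 4.71 CPM in run 1 to 161 CPM in run 4. The oxygen group of these runs is not known, so no difference between air and hyperoxia can be read from them.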
